A study of Mus musculus with 9 samples.

Results

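Costimulatory ligands and the subunits of the IL-12 cytokine family were followed through RNA-seq counts of 9 whole NB9464 tumors. The 10 genes were chosen by symbol: the ligands Cd80, Cd86, Icosl and Tnfsf9, the receptor Cd40 grouped with them, and the subunits Il12a, Il12b, Il23a, Il27 and Ebi3. All 10 had a row among the 54429 symbols of the count table. NB9464 is a mouse neuroblastoma line with MYCN amplification, implanted under the skin of wild-type C57BL/6 mice. Treatment began when tumors measured 250 mm3, and 3 tumors were sequenced in each of 3 groups. The first group received vehicle. The second, R788 + anti-PDL1, received R788 (fostamatinib), an oral prodrug inhibitor of the kinase Syk, at 50 mg/kg and 5 times a week, with antibody clone 10F.9G2 against the checkpoint ligand PD-L1. The group Rad + R788 + anti-PDL1, called irradiated below, received the same agents and 10 Gy of radiation. The series text lists 4 doses, from day 28 to day 37, without naming the agent. Radiation, R788 or antibody alone were not analysed here, so radiation is read only on top of the drugs.

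A naive T cell needs a signal through its antigen receptor and a second, costimulatory signal from the antigen-presenting cell. CD80 and CD86 give that signal through CD28 and are also bound by the inhibitory receptor CTLA4. ICOSL binds ICOS, and the product of Tnfsf9 binds the receptor encoded by Tnfrsf9. CD40 is a receptor on macrophages, dendritic cells and B cells, where the CD40 ligand of T cells raises CD80, CD86 and IL-12. The IL-12 family cytokines are pairs of chains: Il12a with Il12b makes IL-12, Il23a with Il12b makes IL-23, Il27 with Ebi3 makes IL-27, and Il12a with Ebi3 makes IL-35. A transcript of a single chain is therefore no measure of a secreted cytokine.

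The RNA came from whole tumor by the tissue label, although the extraction text names bone marrow-derived macrophages, and collagen and neuroblast genes were both read in every library (Col1a1, the main fibrillar collagen of fibroblasts, 959 to 2845 CPM). CPM here is a gene's count relative to the total of its library after TMM scaling, which corrects for RNA composition. Among the neuroblast markers, Mycn (93.3 to 250.3 CPM) and Hand2 (324.6 to 867 CPM) were high, Th had no count in any library, and Phox2a and Dbh had at most 3 counts. Total counts were 18276683 to 23397886 per library, so 3 counts, the limit that a count of 0 allows, came to 0.115 to 0.221 CPM. Intervals of this kind cover counting error only. Irradiated replicate 1 lay apart, with a TMM factor of 0.743 against 0.975 to 1.12 and mitochondrial genes at 1.97% of counts against 3.48% to 5.71%. Irradiated replicate 3 held the most leukocyte RNA: the 5 pan-leukocyte markers summed to 498.6 CPM there and to 105.8 to 242.2 CPM in the other 8 tumors. The 10 macrophage markers summed to 1351 CPM there and to 215.6 to 486.5 CPM elsewhere, and the 8 T cell markers to 36.4 against 1.81 to 24.0 CPM. Cd4 gave 17.45 of the 36.4 CPM, and 22.9 of the 24.0 CPM, which was R788 + anti-PDL1 replicate 1. Cd3d, Cd3e and Cd3g stood at 0.0882 to 0.176 CPM in that tumor and at 1.87 to 2.51 CPM in irradiated replicate 3. In whole tumors, fewer cells of a type and less RNA per cell cannot be told apart. The labels number the tumors but do not tie them to individual mice, so p-values measure the spread between these samples.

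Promoters of 5 of the 10 genes were in the RefSeq table used here (GRCm38.p6), namely Cd80, Icosl, Il12a, Il12b and Ebi3. Il12a held none of 7 searched motifs. Sequence is shown for the 4 that held a match, 250 bases before the start on the plus strand, 5′ to 3′, with matches in capitals. They are shown so that genes that were highest in the same tumor (Cd80, Il12b and Ebi3) can be read beside a gene that was highest in another (Icosl). The Cd80 window lies before a RefSeq start inside the longer annotated gene, and the end of the Icosl window also runs into its annotated gene.
Cd80: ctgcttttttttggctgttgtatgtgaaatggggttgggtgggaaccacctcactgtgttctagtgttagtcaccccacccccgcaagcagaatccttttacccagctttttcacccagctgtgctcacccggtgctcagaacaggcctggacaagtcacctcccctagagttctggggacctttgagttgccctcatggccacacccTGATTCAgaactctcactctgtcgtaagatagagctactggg
Il12b: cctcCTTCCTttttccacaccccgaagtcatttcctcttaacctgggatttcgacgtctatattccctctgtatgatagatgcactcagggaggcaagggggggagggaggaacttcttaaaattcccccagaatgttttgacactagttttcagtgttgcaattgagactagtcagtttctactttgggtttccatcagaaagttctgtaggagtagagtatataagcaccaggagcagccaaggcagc
Ebi3: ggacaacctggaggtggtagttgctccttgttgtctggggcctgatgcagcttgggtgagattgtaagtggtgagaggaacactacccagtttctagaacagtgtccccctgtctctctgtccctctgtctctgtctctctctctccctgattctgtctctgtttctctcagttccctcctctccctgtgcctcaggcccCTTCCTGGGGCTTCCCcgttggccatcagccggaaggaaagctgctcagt
Icosl: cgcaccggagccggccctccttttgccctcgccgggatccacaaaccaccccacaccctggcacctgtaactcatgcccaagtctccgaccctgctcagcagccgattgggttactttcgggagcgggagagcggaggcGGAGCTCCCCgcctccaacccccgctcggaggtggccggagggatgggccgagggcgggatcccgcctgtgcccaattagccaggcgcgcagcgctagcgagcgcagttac
The windows are chr16:38458683-38458932, chr11:44399813-44400062, chr17:55952373-55952622 and chr10:78069118-78069367. The capitals mark an AP-1 motif (TGANTCA) 42 to 36 bases before the start of Cd80, and a PU.1 motif (AGGAAG, here on the other strand) 246 to 241 bases before the start of Il12b. In Ebi3 they mark a PU.1 motif on the other strand at 50 to 45 bases and an NF-kappaB motif at 44 to 35 bases, which touch but share no base. In Icosl they mark an NF-kappaB motif on the other strand at 111 to 102 bases. Both strands were searched. Of 32851 mouse promoter windows of this length, 6.75% held the AP-1 letters, 29.5% the PU.1 letters and 7.25% the NF-kappaB motif, so each match is a description and not a site. The motif of C/EBP factors (TTGCNNAA) was in 9.56% of windows and that of STAT factors (TTCNNNGAA) in 7.02%. The TATA letters (TATAAA) were in 12.4% and the IRF motif in 2.98%, and none of these 4 motifs was in the sequences shown.

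Per kilobase of exon, Tnfsf9 and Icosl were the most abundant of the 10 transcripts. The mean level over the 9 tumors was 3.45 ± 0.926 CPM per kilobase for Tnfsf9 and 2.67 ± 0.871 for Icosl (SD, n = 9). Ebi3 followed at 1.16 ± 1.11, Il23a at 1.12 ± 0.742 and Cd86 at 0.805 ± 0.718 CPM per kilobase. Cd40 (0.326 ± 0.283), Cd80 (0.279 ± 0.142) and Il12a (0.253 ± 0.134) were lower, and Il27 (0.132 ± 0.256) and Il12b (0.0723 ± 0.0866) were lowest. Most neighbours in this order did not differ beyond their spread: Tnfsf9 was above Icosl in 6 of 9 tumors, Ebi3 above Il23a in 4, Il23a above Cd86 in 5, Cd40 above Cd80 in 6, Cd80 above Il12a in 5, and Il27 above Il12b in 3. The steps from Icosl to Ebi3, from Cd86 to Cd40 and from Il12a to Il27 held in 8 of 9 tumors. With the longest transcript in place of all exons, Icosl moved to 4.39 CPM per kilobase and to the first place.

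**Figure D1:**
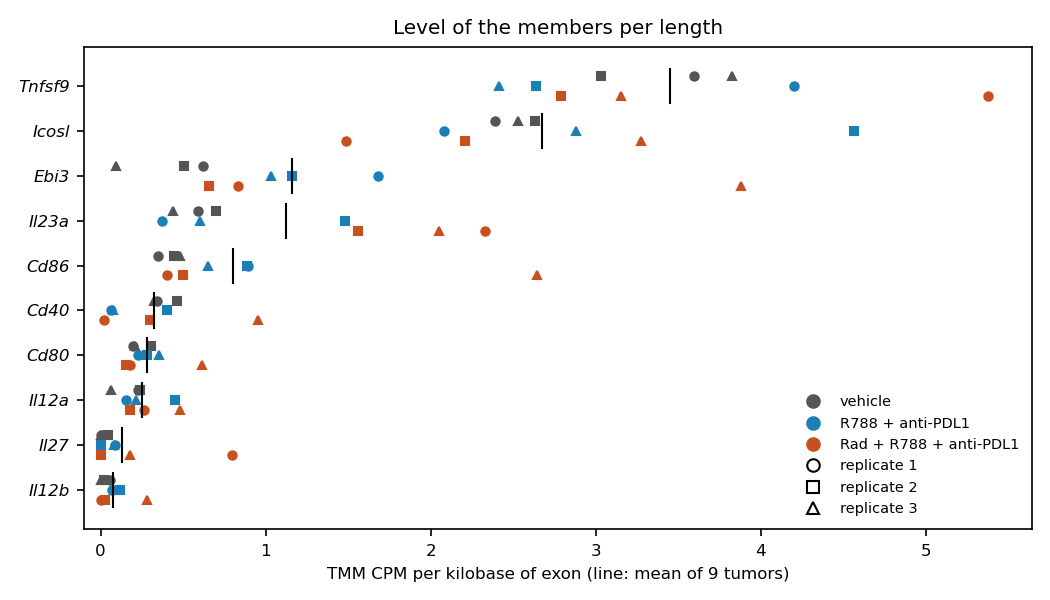
Level of the 10 genes per kilobase of exon (x axis, TMM CPM per kilobase), with a point per tumor, colour for group, shape for replicate number and a line at the mean of 9 tumors. Tnfsf9 and Icosl lie highest, and the upper outlying points of Ebi3, Cd86, Cd40 and Cd80 are all irradiated replicate 3.

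Cd80 and Cd86, the CD28 ligands, lie close together on chromosome 16 (Cd80, ENSMUSG00000075122.5, chr16:38455561-38496335, plus strand; Cd86, ENSMUSG00000022901.13, chr16:36603869-36666081, minus strand; GENCODE M21, GRCm38). Cd86 stood at 1.27, 1.62 and 1.75 CPM in vehicle replicates 1 to 3, at 3.26, 3.25 and 2.38 CPM with R788 + anti-PDL1, and at 1.48, 1.83 and 9.68 CPM in the irradiated tumors. All 3 R788 + anti-PDL1 tumors were above all 3 vehicle tumors, whereas 2 of the irradiated tumors were at vehicle level and the third was the highest of the 9. The log2 fold change was 0.93 ± 0.68 (SE) for R788 + anti-PDL1 against vehicle, with an adjusted p of 0.681 in edgeR's quasi-likelihood test. It was 1.49 ± 0.68 for irradiated against vehicle (adjusted p = 0.384), and 0.09 without irradiated replicate 3. Cd80 stood at 0.718, 1.12 and 0.767 CPM with vehicle, 0.838, 1.03 and 1.31 CPM with R788 + anti-PDL1, and 0.664, 0.558 and 2.28 CPM after irradiation. The groups overlapped, and the 2 lowest values as well as the highest were irradiated tumors. Its log2 fold changes were 0.28 ± 0.62 and 0.43 ± 0.62 against vehicle, and the second turned to -0.52 without irradiated replicate 3.

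Cd40, the receptor through which helper T cells license antigen-presenting cells (ENSMUSG00000017652.16, chr2:165055627-165072948, plus strand), was even among vehicle tumors and uneven among treated ones. It stood at 1.16, 1.57 and 1.10 CPM with vehicle, 0.220, 1.38 and 0.246 CPM with R788 + anti-PDL1, and 0.0738, 1.01 and 3.24 CPM after irradiation. R788 + anti-PDL1 replicates 1 and 3 had 5 and 6 counts and irradiated replicate 1 had 1 count, against 20 to 35 in the vehicle tumors. R788 + anti-PDL1 replicate 2, with 36 counts, was at vehicle level. The log2 fold change against vehicle was -1.04 ± 1.05 for R788 + anti-PDL1 (adjusted p = 0.78 in edgeR) and 0.20 ± 1.02 for irradiated tumors (adjusted p = 0.933), and the latter was -1.18 without irradiated replicate 3. The former rested unevenly on the 3 R788 + anti-PDL1 tumors, at -2.42 without replicate 2 of that group and -0.65 without replicate 1.

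Icosl, the ICOS ligand of B cells, myeloid cells and endothelium (ENSMUSG00000000732.9, chr10:78069302-78083913, plus strand), gave the most counts of the 10 genes, 93 to 552 per library. It stood at 11.0, 12.2 and 11.7 CPM with vehicle, 9.61, 21.1 and 13.3 CPM with R788 + anti-PDL1, and 6.86, 10.2 and 15.1 CPM after irradiation. The 3 vehicle tumors were nearly equal and both treated groups spread to either side of them. The log2 fold changes against vehicle were 0.34 ± 0.36 and -0.11 ± 0.36, and edgeR's adjusted p-values were 0.794 and 0.888. The first was -0.02 without R788 + anti-PDL1 replicate 2. In that tumor the 5 endothelial markers summed to 115 CPM, against 34.7 to 67.6 CPM in the other 8, and their part in the Icosl value was not tested.

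Tnfsf9, a TNF family ligand that costimulates activated T cells (ENSMUSG00000035678.8, chr17:57105325-57107757, plus strand), varied least over the 9 tumors relative to its mean. It stood at 4.64, 3.91 and 4.93 CPM with vehicle, 5.42, 3.40 and 3.11 CPM with R788 + anti-PDL1, and 6.93, 3.60 and 4.06 CPM after irradiation. The groups overlapped throughout, with log2 fold changes against vehicle of -0.17 ± 0.38 and 0.11 ± 0.38 (adjusted p = 0.91 and 0.896 in edgeR). The gene overlaps the noncoding gene Gm11110 on the opposite strand, which was listed at 2.65 to 7.89 CPM, and no source used here states whether the libraries kept strand, so these counts are uncertain.

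**Figure D2:**
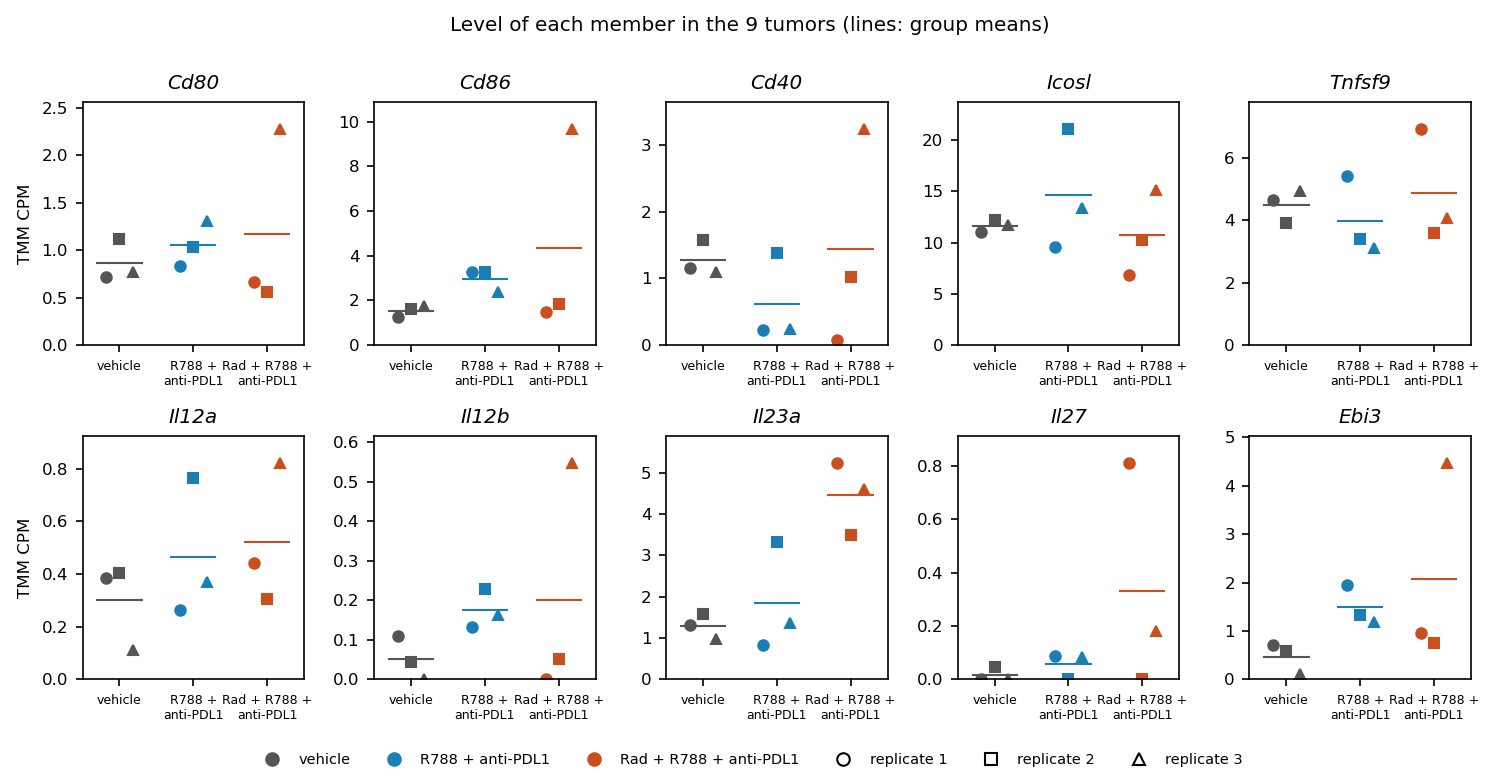
TMM CPM (y axis, linear, a scale of its own per panel) of each gene in the 9 tumors by group, with shape for replicate number and a line at the group mean. Irradiated replicate 3 is the highest point for Cd80, Cd86, Cd40, Il12a, Il12b and Ebi3, while Il23a is the panel in which all 3 irradiated points lie above the other 6.

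Among the cytokine subunits, Il23a, the chain particular to IL-23 (ENSMUSG00000025383.2, chr10:128296139-128298752, minus strand), was higher by TMM CPM in each irradiated tumor than in any other tumor. It stood at 1.33, 1.57 and 0.987 CPM with vehicle, 0.838, 3.33 and 1.35 CPM with R788 + anti-PDL1, and 5.24, 3.50 and 4.61 CPM after irradiation. The nearest values were 3.50 CPM in irradiated replicate 2 and 3.33 CPM in R788 + anti-PDL1 replicate 2. These were 69 of 19025110 counts and 87 of 23397886 counts, with TMM factors of 1.037 and 1.12. The order of these 2 tumors thus depended on the TMM scaling. The group means were 1.29 ± 0.294, 1.84 ± 1.31 and 4.45 ± 0.879 CPM (SD, n = 3). Irradiated against vehicle gave a log2 fold change of 1.77 ± 0.54, a 3.42-fold difference, with an unadjusted p of 0.00883 and an adjusted p of 0.268 over 15931 genes in edgeR. Irradiated against R788 + anti-PDL1 gave 1.27 ± 0.53 (adjusted p = 0.255), and R788 + anti-PDL1 against vehicle 0.51 ± 0.53 (adjusted p = 0.79). Without R788 + anti-PDL1 replicate 2 these last values were 2.01 (adjusted p = 0.14 in edgeR) and -0.24, and without R788 + anti-PDL1 replicate 1 the first of them was 0.92. DESeq2, the tool named in the study's methods, called the irradiated tumors against vehicle (log2 fold change 1.81, adjusted p = 0.0352), where it called 3.84% of all genes. Leaving out irradiated replicates 1, 2 or 3 in turn gave 1.67, 1.91 and 1.74 in edgeR, with adjusted p-values of 0.217, 0.257 and 0.295, so the direction did not rest on the macrophage-rich tumor or on the tumor that lay apart.

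Ebi3, the chain shared by IL-27 and IL-35 (ENSMUSG00000003206.7, chr17:55952640-55957022, plus strand), was higher in all 6 treated tumors than in any vehicle tumor. It stood at 0.718, 0.584 and 0.110 CPM with vehicle, 1.94, 1.34 and 1.19 CPM with R788 + anti-PDL1, and 0.959, 0.761 and 4.48 CPM after irradiation. The vehicle tumors had 13, 13 and 2 counts, so their level was near the limit of the depth. Irradiated replicates 1 and 2 had 13 and 15 counts, so they stood only slightly above vehicle replicates 1 and 2. R788 + anti-PDL1 against vehicle gave a log2 fold change of 1.64 ± 0.83 (unadjusted p = 0.078, adjusted p = 0.508 in edgeR), and irradiated against vehicle 2.13 ± 0.84 (unadjusted p = 0.0309, adjusted p = 0.346). The second value was 0.85 without irradiated replicate 3, with an adjusted p of 0.545 in edgeR. Ebi3 overlaps the antisense gene Gm16712, listed at 0.0882 to 0.535 CPM.

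Il12a, the chain particular to IL-12 and IL-35 (ENSMUSG00000027776.12, chr3:68690644-68698547), Il12b, shared by IL-12 and IL-23 (ENSMUSG00000004296.14, chr11:44400063-44414033), and Il27 (ENSMUSG00000044701.5, chr7:126589010-126594941) were too low for the filter. Il12a had 2 to 20 counts per library, 0.110 to 0.822 CPM. Il12b had 2, 1 and 0 counts with vehicle, 3, 6 and 4 with R788 + anti-PDL1, and 0, 1 and 12 after irradiation. Il12b thus passed 3 counts in 2 R788 + anti-PDL1 tumors and in irradiated replicate 3, so a partner for Il23a was barely read in irradiated replicates 1 and 2. Il27 had 20 counts in all 9 libraries together, 11 of them in irradiated replicate 1 and 4 in irradiated replicate 3. Il27 overlaps Apobr on the opposite strand, so the few counts of Il27 are uncertain. Apobr stood at 16.3 to 18.5 CPM with vehicle, 9.43 to 22.6 CPM with R788 + anti-PDL1 and 25.5 to 27.7 CPM after irradiation. No difference in these 3 genes was detectable at this depth, and without the filter the smallest of their adjusted p-values in edgeR was 0.472.

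Over the 7 genes tested, none was called in any comparison at an adjusted p under 0.05 in edgeR. Of all 15931 genes tested, 0.678% were called for R788 + anti-PDL1 against vehicle, 0.0439% for irradiated against vehicle, 0.00628% for irradiated against R788 + anti-PDL1 and 0.0942% for any difference among the 3 groups. At an unadjusted p under 0.05, no gene of the 7 passed for R788 + anti-PDL1 against vehicle, where 11.7% of all genes did. Il23a and Ebi3 passed for irradiated against vehicle (13.2% of all genes) and Il23a for irradiated against R788 + anti-PDL1 (18.4%). Il23a also passed for any difference among the groups (16.8% of all genes), with an adjusted p of 0.232 in edgeR. DESeq2 called Il23a alone, in irradiated against vehicle and in any difference among the groups, where it called 3.84% and 8.55% of all genes, and it called no gene of the 7 in R788 + anti-PDL1 against vehicle (4.83% of all genes) or in irradiated against R788 + anti-PDL1 (5.16%). Groups did not overlap for Cd86 and Ebi3 in R788 + anti-PDL1 against vehicle, where 13.6% of all genes were higher without overlap and 16.5% lower. They did not overlap for Il23a and Ebi3 in irradiated against vehicle (9.27% higher, 11.2% lower). By TMM CPM they did not overlap for Il23a in irradiated against R788 + anti-PDL1 either (14.2% higher, 13.2% lower), where the margin depended on the scaling. Every such case was higher and none lower. The comparisons share their groups and are not independent.

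**Figure D3:**
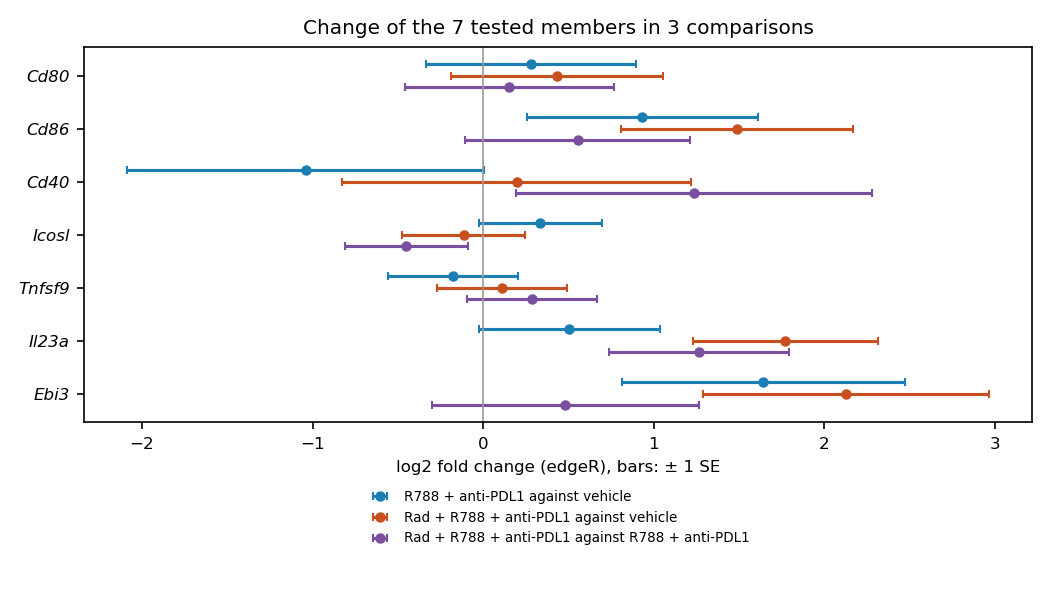
Log2 fold change from edgeR (x axis) of the 7 tested genes in 3 comparisons, with bars of 1 SE to each side. The values lie between -1.04 and 2.13, and those of Il23a and Ebi3 for irradiated against vehicle lie farthest to the right.

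For 6 of the 10 genes (Cd80, Cd86, Cd40, Il12a, Il12b and Ebi3) the highest tumor was irradiated replicate 3, and 4 of these were among the 7 tested, whereas this tumor was the highest of the 9 for 9.12% of all genes tested. Its value was 2.97 times that of the next tumor for Cd86, 2.31 times for Ebi3, 2.06 times for Cd40 and 1.74 times for Cd80. By TMM CPM, Il23a, Tnfsf9 and Il27 were highest in irradiated replicate 1 and Icosl in R788 + anti-PDL1 replicate 2. For Il23a and Tnfsf9 this depended on the scaling of irradiated replicate 1 (TMM factor 0.743). By raw count, Il23a was highest in irradiated replicate 3 (101 against 71) and Tnfsf9 in R788 + anti-PDL1 replicate 1 (123 against 94). Without irradiated replicate 3, irradiated against R788 + anti-PDL1 was -0.84 for Cd86, -0.79 for Ebi3 and -0.80 for Cd80 in log2 fold change, and 1.24 for Il23a. In irradiated replicate 3, 8 of the 10 macrophage markers and 7 of the 8 T cell markers were also at their highest. Their part in these values was not tested beyond the ratios that follow.

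**Figure D4:**
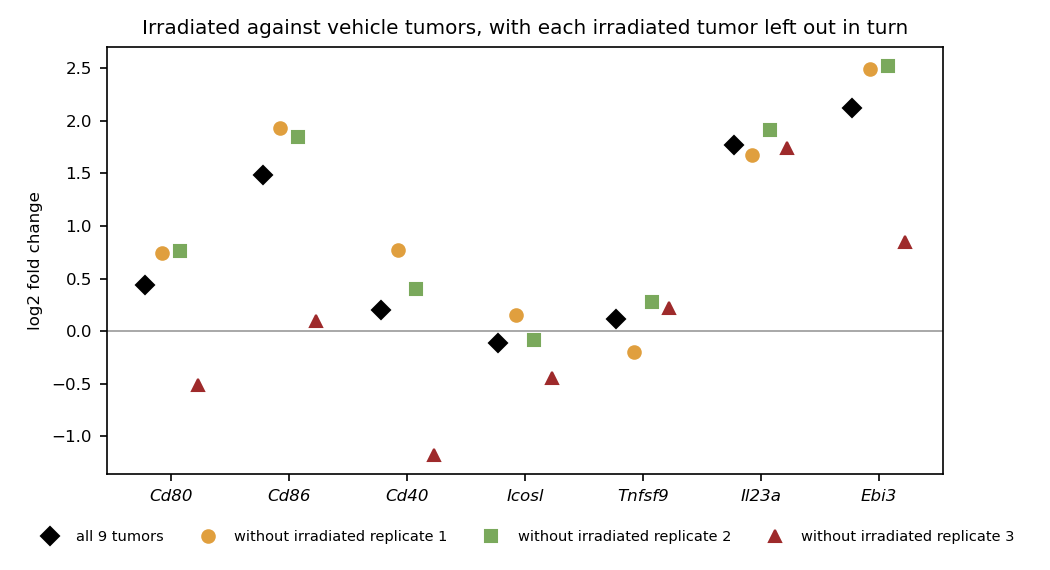
Log2 fold change of irradiated against vehicle tumors (y axis) for the 7 tested genes, with all 9 tumors and with each irradiated tumor left out. Cd80 and Cd40 fall below 0 and Cd86 falls to 0.09 without irradiated replicate 3, while Il23a stays between 1.67 and 1.91.

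Set against macrophage RNA, all groups overlapped for Cd86 and Ebi3. By TMM CPM alone, irradiated and vehicle tumors had already overlapped for Cd86. Per 1000 CPM of summed macrophage markers, Cd86 (with 0.5 CPM added) ranged from 4.27 to 9.82 in vehicle tumors, from 5.91 to 8.50 with R788 + anti-PDL1 and from 4.95 to 9.20 after irradiation. The mean log2 ratios of both treated groups differed from that of vehicle by 0.04 and -0.02, within SDs of 0.28 to 0.65 (exact permutation test over 3 groups, two-sided, p = 0.979, adjusted p = 0.979 over the 7 genes tested). Ebi3, also with 0.5 CPM added, ranged from 2.32 to 5.03, from 3.47 to 5.10 and from 3.66 to 4.99 in the same order (exact permutation p = 0.518, adjusted p = 0.604). The added 0.5 CPM was of the size of the vehicle levels of Ebi3 (0.110 to 0.718 CPM) and so narrowed its differences from vehicle. With other added values, total-count scaling or pan-leukocyte markers, the exact permutation p of Ebi3 was 0.121 to 0.971. Il23a stood at 14.4 and 15.8 per 1000 CPM in irradiated replicates 1 and 2 and at 3.78 in irradiated replicate 3, against 4.40 to 9.61 in vehicle tumors and 2.79 to 8.67 with R788 + anti-PDL1. The excess of Il23a over macrophage RNA was thus seen in 2 of 3 irradiated tumors, and the test over groups gave an exact permutation p of 0.354 (adjusted p = 0.604). The other 4 genes had exact permutation p-values between 0.175 and 0.432. With 3 tumors a group, no pairwise exact p can go below 0.1.

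**Figure D5:**
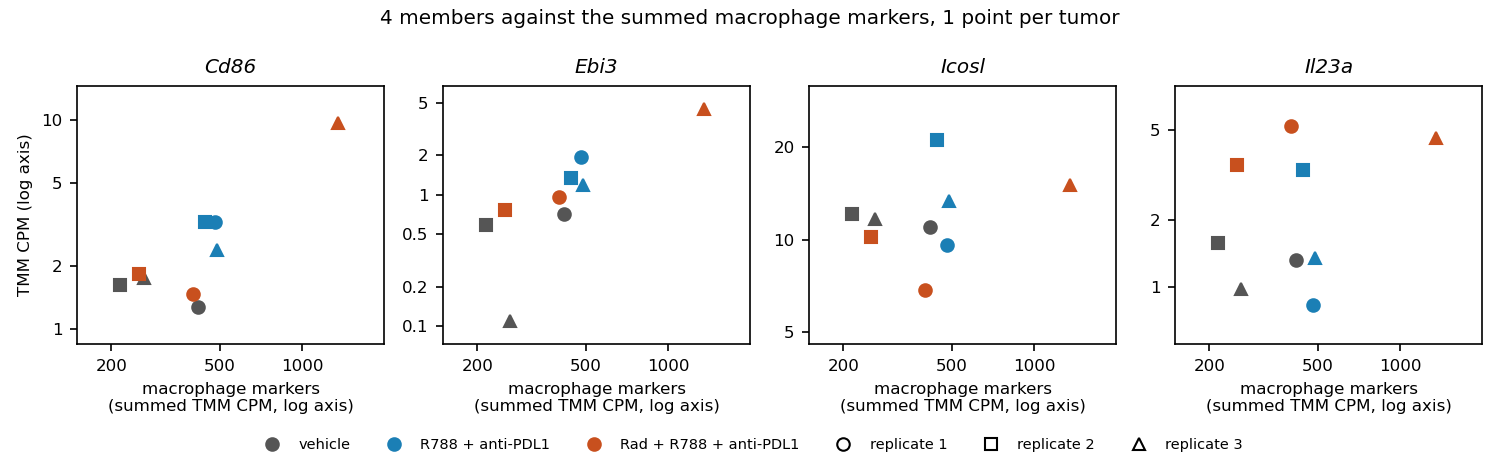
TMM CPM of Cd86, Ebi3, Icosl and Il23a (y axis, log scale) against the summed TMM CPM of 10 macrophage markers (x axis, log scale), with a point per tumor. Cd86 and Ebi3 are highest in the tumor with the most macrophage RNA, while irradiated replicates 1 and 2 lie high for Il23a at 399 and 252.8 CPM of macrophage markers.

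The balance among the ligands and the receptor Cd40 was also compared within tumors. The ratio of Cd40 to Cd86 (each with 0.5 CPM added) was 0.938, 0.979 and 0.708 in vehicle tumors, 0.192, 0.50 and 0.259 with R788 + anti-PDL1, and 0.291, 0.651 and 0.368 after irradiation. All 6 treated tumors were below all 3 vehicle tumors. The exact permutation test over 3 groups gave p = 0.0536, or 0.268 when adjusted over the 5 ratios tested, and both pairwise comparisons with vehicle reached the smallest possible p of 0.1. The ratio of Icosl to Cd86 was 5.40 to 6.52 in vehicle tumors, 2.69 to 5.76 with R788 + anti-PDL1 and 1.53 to 4.60 after irradiation (exact permutation p = 0.164, adjusted p = 0.327). The ratios of Cd86 to Cd80, Cd40 to Cd80 and Tnfsf9 to Cd86 had exact permutation p-values of 0.196, 0.264 and 0.479.

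The genes most like each member across the 9 tumors were sought among 12550 genes by Pearson's r of log2 CPM. These values are descriptions, since all points share library depth and composition. For Cd86 they included Gpr65 (r = 0.980), a receptor that senses acid outside the cell, and Ms4a6c (0.971). For Ebi3 they included Cd83 (0.955), a marker of mature dendritic cells, and Epsti1 (0.953). For Cd80 they were Fgd2 (0.965), Oas3 (0.953) and the macrophage mannose receptor Mrc1 (0.935). For Icosl they were Cbfa2t3 (0.965), the lymphatic vessel gene Lyve1 (0.953) and Cd300lg (0.948). For Il23a they were Klhl2 (0.974), Cyp2j9 (0.970) and Rapgef3 (0.969). For Cd40 they were Actr2 (0.944), Osbpl11 (0.934) and Trim34a (0.924), and for Tnfsf9 Atp6v1e1 (0.915), Mtrf1l (0.914) and Nup107 (0.914). Without irradiated replicate 3, the r values of Cd80 with Mrc1 and of Cd86 with Gpr65 were 0.795 and 0.916, and that of Il23a with Klhl2 was 0.975. Between members, Cd86 and Ebi3 had an r of 0.864, and 0.654 without that tumor, while Il23a and Cd86 had 0.320 and -0.151.

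The receptors and counter-receptors ranged from no count to well above the 10 genes themselves. Cd40lg, the T cell ligand of CD40, and Il23r, the chain particular to the IL-23 receptor, had no count in any library, nor did Il17a, a cytokine of cells that respond to IL-23. Cd28, the receptor of CD80 and CD86, stood at 0.0449 to 0.164 CPM with vehicle, 0.268 to 0.656 CPM with R788 + anti-PDL1 and 0.355 to 2.19 CPM after irradiation. It was higher in every treated tumor than in any vehicle tumor, but every vehicle tumor had at most 3 counts, the limit of the depth. The size of the difference is therefore not given (irradiated against vehicle, adjusted p = 0.222 in edgeR and 0.0365 in DESeq2). Cd28 reached the low-count filter, at about 0.49 CPM, only in treated tumors, so these p-values are no support for a difference. Ctla4 and Icos were at 2.05 and 1.37 CPM in irradiated replicate 3 and at no more than 0.148 and 0.306 CPM elsewhere. Tnfrsf9, the receptor of the Tnfsf9 product, was the most abundant of the 5 genes listed as T cell partners of the ligands and CD40. It had lower means in the treated groups. It stood at 10.9, 19.4 and 20.8 CPM with vehicle, 12.3, 3.36 and 9.34 CPM with R788 + anti-PDL1, and 12.6, 11.3 and 12.7 CPM after irradiation, so the groups overlapped. Its log2 fold change against vehicle was -1.03 ± 0.44 for R788 + anti-PDL1 (adjusted p = 0.398 in edgeR) and -0.48 ± 0.44 for irradiated tumors (adjusted p = 0.596). In the vehicle tumors Tnfrsf9 alone was above the summed 8 T cell markers (1.81 to 4.20 CPM), and the cells it came from were not tested. Of the IL-12 family receptor chains, Il12rb1, shared by the IL-12 and IL-23 receptors, stood at 0.110 to 0.219 CPM with vehicle, 0.410 to 0.497 CPM with R788 + anti-PDL1 and 0.443 to 1.32 CPM after irradiation. The vehicle tumors were near the limit of the depth, and Il12rb1 passed the low-count filter only through treated tumors. The size of its difference is therefore not given (irradiated against vehicle, adjusted p = 0.222 in edgeR). Il6st, the signalling chain gp130 that the IL-27 receptor shares with many others, held nearly all counts of these chains, at 141.6 to 179.7 CPM with vehicle, 135.7 to 201.8 CPM with R788 + anti-PDL1 and 58.7 to 135.8 CPM after irradiation. Its log2 fold changes against vehicle were 0.07 ± 0.31 and -0.57 ± 0.31 (adjusted p = 0.959 and 0.426 in edgeR), and the irradiated tumors were below all vehicle tumors.

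Around the 10 genes, 43 others were listed by role, of which 27 were tested and none was called in any comparison by edgeR. The median log2 fold change of the 10 CD40 signalling genes was -0.35 for R788 + anti-PDL1 against vehicle and -0.16 for irradiated against vehicle, against -0.02 and 0.05 over all genes. Among them Relb, the NF-kappaB subunit of the noncanonical pathway, stood at 32.5, 34.6 and 28.2 CPM with vehicle, 17.6, 15.8 and 17.5 CPM with R788 + anti-PDL1, and 32.2, 22.9 and 27.9 CPM after irradiation. The R788 + anti-PDL1 tumors were below the other 6, with a log2 fold change of -0.90 ± 0.20 against vehicle (adjusted p = 0.0879 in edgeR). The adjusted p of Relb was 0.00156 in DESeq2 and 0.015 in edgeR without irradiated replicate 1. The 3 tested IL-12 family receptor chains did not share a direction after irradiation (Il12rb1 and Il27ra positive, Il6st negative). Of the tested genes listed as T cell partners of the ligands, Cd28 was positive and Tnfrsf9 negative in both comparisons. The 6 tested genes of IL-12 family signalling had medians of -0.06 and -0.19, and the 4 tested coinhibitory relatives 0.22 and 0.28. Of the 7 other costimulatory ligands, Cd48 and Icam1 passed the filter, with log2 fold changes for irradiated against vehicle of 1.47 ± 0.84 and 1.37 ± 0.52 (adjusted p = 0.436 and 0.333 in edgeR).

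Markers of other cells stood beside Il23a as follows. The 5 keratinocyte markers summed to 7.95 to 8.61 CPM with vehicle, 2.16 to 64.2 CPM with R788 + anti-PDL1 and 47.4 to 75.8 CPM after irradiation. R788 + anti-PDL1 replicate 2, which had the highest Il23a outside the irradiated group, also had the highest of these sums outside it. The higher sums were those of Krt5, a keratin of basal keratinocytes, which averaged 5.07 CPM with vehicle and 58.5 CPM after irradiation (log2 fold change 3.53 ± 0.95, adjusted p = 0.222 in edgeR). Its partner keratin Krt14 lay the other way, at 0.221, 1.84 and 2.36 CPM with vehicle, at 0 in the R788 + anti-PDL1 tumors and in 2 irradiated tumors, and at 0.101 CPM in the third. Trp63, a transcription factor of the same cells, averaged 1.79 CPM with vehicle, 0.681 CPM with R788 + anti-PDL1 and 0.809 CPM after irradiation, with overlap between the groups, and Krt1 had no more than 1 count in any library. The 9 dendritic cell markers summed to 67.6, 37.3 and 71.9 CPM in irradiated replicates 1 to 3 against 30.0 to 46.9 CPM in the other 6, with Batf3 at 46.0 CPM in irradiated replicate 1. Neutrophil markers summed to 3.13 to 17.7 CPM and B cell markers to 1.39 to 11.9 CPM over all tumors. R788 + anti-PDL1 replicate 2 also had the highest sums of fibroblast markers (5367 CPM) and endothelial markers (115 CPM) of all tumors. Its place was thus not particular to keratinocyte markers. Fibroblast markers summed to 3013 to 3742 CPM with vehicle and 2506 to 4924 CPM after irradiation, and endothelial markers to 34.7 to 45.0 and 46.5 to 62.7 CPM. The part of these cells in the Il23a values was not tested.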

How the data were processed

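RNA-seq of 9 whole tumors was analysed, 3 per group, grouped by their treatment labels. The authors used STAR (2.6.1d per the submitters' processing notes) on build mm10, ran Salmon (1.4.0) for quantification and compared groups with DESeq2. Their deposited values are estimated counts, whole and not normalized, with a row per symbol. The paper gives single reads on a HiSeq2000 and the labels paired reads on a newer sequencer. Strandedness is not given in the sources used here.

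The members and gene lists were chosen with earlier results of these data known. Counts were rounded, filtered with filterByExpr (minimum count 10), TMM-scaled, and modelled with edgeR 4.0.16 under R 4.3.3 (robust quasi-likelihood F test, all 9 libraries in a single fit, a coefficient per group, no covariate). P-values were adjusted by Benjamini-Hochberg over 15931 genes and called under 0.05, and the SE was taken from the F statistic. Of the 10 members, 7 passed the filter. The scripts were tested on simulated data. Ratios and levels relative to macrophage markers were compared by exact two-sided permutation (1680 splits over 3 groups, 20 per pair) after adding 0.5 CPM. Ratios with Il12a or Il27 were not tested because these failed the filter. Levels per length used all exons of GENCODE M21. Named genes were all 10 members, genes of the lists, and for each tested member the 3 genes with the highest Pearson's r among tested genes with a mean of at least 1 CPM, leaving out antigen receptor segments, Rik clones and predicted genes. A few genes of the lists and of this ranking are not reported here. Alternatives were DESeq2 1.42.0, limma-voom (limma 3.58.1), other scalings and filters, a replicate block, only the compared libraries, and each library left out. Total counts were 18276683 to 23397886, and their size limits what low genes can show.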

Additional observations from a re-analysis of the deposited data

How the results depend on the processing

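Of 369 log2 fold changes of the 7 tested genes under the alternatives, 353 kept their direction and side of the threshold. With DESeq2 the number of members called rose from 0 to 1 for irradiated against vehicle and for any difference among the groups (Il23a, adjusted p = 0.0352 and 0.0351; range over all alternatives of the first 0.0352 to 0.706), and pathway genes called from 0 to 1 of 27 in each of the 3 comparisons (Relb, Cd28 and Relb), where DESeq2 called 4.83%, 3.84% and 5.16% of all genes. Cd28 passed the filter only through treated tumors. Relb was also the 1 pathway gene called for R788 + anti-PDL1 against vehicle with only the 6 libraries compared (edgeR, adjusted p = 0.0271, 3.84% of all genes called) and without irradiated replicate 1 (5.15%). Leaving out libraries gave 0 to 1 there. Cd40 for irradiated against vehicle was -0.61 with limma-voom and -0.32 with the replicate block, and Cd80 for irradiated against the drugs alone was -0.058 and -0.0079. The tumors share only a number: deviations of same-numbered tumors correlated at -0.0443 to 0.264, and the replicate block changed no call of a member and left 0, 3 and 0 calls over all genes in the 3 comparisons. Leaving out each library in turn reversed a direction for Icosl -0.0216 to 0.56, Il23a -0.24 to 0.85 (drugs alone against vehicle), and Icosl -0.45 to 0.16, Tnfsf9 -0.20 to 0.28, Cd80 -0.52 to 0.77, Cd40 -1.18 to 0.77 (irradiated against vehicle), and Tnfsf9 -0.0435 to 0.57, Cd80 -0.80 to 0.49, Cd86 -0.84 to 0.97, Cd40 -0.13 to 2.62, Ebi3 -0.79 to 0.88 (irradiated against drugs alone). Counts of members, of ratios and of levels relative to macrophage markers past the threshold were 0 under every other alternative, including priors of 0.1 and 1 CPM. Upper-quartile scaling moved the median of all genes to 0.109 for irradiated against vehicle. The cause of these differences was not tested. Depth limits Il12a, Il12b and Il27, which the filter removed, and the groups of 3 tumors were too small for a test of outlying samples.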
